A study of Mus musculus with 6 samples.

Results

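The genes described here are 10 regulators that drive cells into and through mitosis: Cdk1, the cyclins Ccna2, Ccnb1 and Ccnb2, the kinases Aurka, Aurkb, Plk1, Bub1 and Ttk, and Cdc20. They were taken as the rows of the deposited expression table whose symbol equals one of these names. All 10 were found among the 38926 symbols of the table, and all 10 had a mean of at least 1 FPKM. FPKM values are read counts divided by gene length and by a depth term of the library, so levels of different genes are compared per length.

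RNA was sequenced from sorted LSK cells of bone marrow, which lack lineage markers and carry Sca1 and cKit, and which comprise haematopoietic stem cells and multipotent progenitors. The cells came from femur and tibia of C57BL/6 mice of 8 to 12 weeks without treatment. There were 3 libraries labelled Drd2 Drd3 double knockout (KO) and 3 libraries labelled wild type (WT). Drd2 and Drd3 encode D2-like dopamine receptors, and the comparison sets cells in which both are targeted beside cells in which neither is. The labels name no other allele or agent, and the altered exons and the number of animals per library are not given in the sources used here. P-values therefore measure the spread between these libraries, which may be technical.

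Entry into mitosis rests on cyclin-dependent kinase 1 (Cdk1), which is inactive until cyclin A2 or a B-type cyclin binds it. Aurora A (Aurka) and Plk1 help to switch Cdk1 on and to build the spindle, while Aurora B (Aurkb) corrects faulty attachments of chromosomes. Bub1 and Ttk (also called Mps1) keep the spindle checkpoint active until every chromosome is attached. Cdc20 then activates the anaphase-promoting complex, which marks the B cyclins and securin for destruction. Transcripts of these genes accumulate from late S phase to mitosis and are low in resting cells, and most adult haematopoietic stem cells are at rest.

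This shared timing is written in the promoters of such genes. Many carry the cell cycle genes homology region, a short element bound by the MuvB core of the DREAM, B-Myb and FoxM1 complexes, and CCAAT boxes bound by NF-Y. RefSeq promoter windows (build GRCm38.p6, 250 bases before to 50 after the start site) were matched by symbol for 8 of the 10 genes, leaving Ccna2 and Aurkb. The sequences below show the 150 bases before the start site of 6 genes, 5′ to 3′ on the strand of the gene, chosen to set genes that fell (Cdk1, Bub1, Cdc20) beside genes that did not pass the test (Ccnb1, Ccnb2, Plk1). Capitals mark the CCAAT box and, of the homology region, the forms TTTGAA and also TTTAAA, each on either strand. They lie at chr10:69352913-69353062 (minus strand) for Cdk1, chr13:100786487-100786636 (minus) for Ccnb1, chr9:70421555-70421704 (minus) for Ccnb2, chr7:122159285-122159434 (plus) for Plk1, chr2:127831860-127832009 (minus) for Bub1 and chr4:118437344-118437493 (minus) for Cdc20.
Cdk1: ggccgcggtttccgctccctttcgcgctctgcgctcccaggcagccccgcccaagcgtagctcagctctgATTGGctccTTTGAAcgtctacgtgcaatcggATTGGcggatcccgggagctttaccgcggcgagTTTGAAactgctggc
Ccnb1: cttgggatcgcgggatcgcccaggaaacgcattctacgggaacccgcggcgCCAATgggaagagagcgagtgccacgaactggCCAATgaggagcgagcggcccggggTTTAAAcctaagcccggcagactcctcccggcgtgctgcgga
Ccnb2: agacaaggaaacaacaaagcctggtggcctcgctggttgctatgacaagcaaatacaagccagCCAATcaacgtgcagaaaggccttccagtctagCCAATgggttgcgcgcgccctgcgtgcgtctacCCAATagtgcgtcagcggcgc
Plk1: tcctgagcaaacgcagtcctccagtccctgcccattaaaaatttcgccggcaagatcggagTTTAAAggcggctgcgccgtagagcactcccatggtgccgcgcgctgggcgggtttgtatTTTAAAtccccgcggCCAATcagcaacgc
Bub1: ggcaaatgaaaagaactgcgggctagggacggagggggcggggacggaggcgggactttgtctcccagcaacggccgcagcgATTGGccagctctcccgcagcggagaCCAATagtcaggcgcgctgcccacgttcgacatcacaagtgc
Cdc20: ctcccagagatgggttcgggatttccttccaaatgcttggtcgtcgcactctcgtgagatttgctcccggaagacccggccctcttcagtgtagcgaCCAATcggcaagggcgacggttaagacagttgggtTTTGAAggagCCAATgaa

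The forms of the homology region searched on both strands were TTTGAA, then the variant TTCGAA, then the variant TTTAAA. The box CCAAT was searched in the same way, and no base of these windows was shared by 2 matches. At least 1 of the homology region forms was present in 8 of 8 windows, against 28.8% of all 32851 RefSeq windows. TTTGAA was in 6 of the 8, against 17.9% of all windows, and CCAAT was in 8 of the 8, against 37.4%. A window with 2 or more CCAAT was seen for 7 of the 8 genes and for 11.7% of all windows. In Cdk1, TTTGAA began at -71 and -15 from the start site, and in Cdc20 at -18. Ccnb1 held TTTAAA at -42, and Plk1 held it at -89 and -29. The form in Bub1 was TTCGAA, and there it lay after the start site, as did the TTTGAA of Aurka, Ttk and Plk1 and 1 of the 2 in Ccnb2. Plk1 was the gene with a lone CCAAT. This box was thus present both in genes that fell and in genes that did not pass, while the form of the homology region varied between genes. These letters describe the windows and are not shown to be bound. Positions before or after the start are those of RefSeq. By the gene positions given below, Cdk1, Ccnb1, Bub1 and Cdc20 start further upstream, and Aurka, Ccnb2 and Plk1 further downstream. The TTTGAA at -15 of Cdk1 and the TTTAAA at -42 of Ccnb1 then lie inside the gene. So do the CCAAT at -67 of Ccnb1 and the CCAAT at -8 of Cdc20. The TTTGAA of Aurka and the TTTGAA after the RefSeq start of Ccnb2 then begin before the start.

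The libraries held 5245255 to 7143455 recovered reads (whole reads worked back from the FPKM values). The 10 genes had 104 to 1278 reads each in a library, so none was near the limit of detection. Drd2 was listed at 0 in all 6 libraries. Drd3 had 1.62, 3.08 and 3.04 FPKM in KO replicates 1 to 3 and was listed at 0 in every WT library. This is the reverse of what the labels alone would lead one to expect. As the altered exons are not given, it cannot settle whether the labels hold. Every direction below is that between libraries so labelled. The Y-linked gene Ddx3y was at 15.1 FPKM in KO replicate 2 and at 12.5 to 13.9 FPKM in the WT libraries, and at 0 in KO replicates 1 and 3, where Xist was at 1.96 and 2.01 FPKM. Sex was thus unevenly spread over the groups. The gate markers Kit and Ly6a (Sca1) were present in every library (at least 82.5 and 110 FPKM), and neither differed past the threshold (adjusted p = 0.387 and 0.636). With Ly6e, Cd34 and Cd27, which the gate does not sort on, they made a list of 5, of which 0 rose and 1 fell. That was Cd34 (mean of 410 FPKM in KO and 675 FPKM in WT libraries, limma adjusted p = 0.0042). The 5 summed to 1113 to 1400 FPKM in KO libraries and 1535 to 1631 FPKM in WT libraries, with Ly6e and Cd34 weighing most. Of 17 tested stem cell markers 11 rose and 0 fell, with a summed level of 2121 to 2206 FPKM in the libraries labelled KO and 1306 to 1341 FPKM in those labelled WT. Ifitm1 and Ifitm3 weighed most in these sums, and Ifitm3, Hlf, Meis1, Mecom, Fgd5 and Ctnnal1 did not pass. Procr, a stem cell surface receptor, rose by 0.70 on the log2 scale, and missed the threshold without KO replicate 2 (adjusted p = 0.0623) and without each WT replicate (0.0559 to 0.0981). Of 11 multipotent progenitor markers 0 rose and 6 fell, with sums of 734 to 898 FPKM against 1222 to 1439 FPKM in WT, and the cytokine receptor gene Flt3 was among those that fell (-1.22). Of 14 erythroid markers 8 rose and 0 fell, with sums of 2710 to 4687 FPKM against 1621 to 2098 FPKM in WT. The sums of B and plasma cell markers (163 to 3607 FPKM against 336 to 361 FPKM in WT, 0 of 8 called), neutrophil markers (601 to 1349 against 892 to 952, 0 of 11 called), mast cell and basophil markers (68.2 to 137 against 53.9 to 92.3, 3 of 7 rose) and macrophage and dendritic markers (18.6 to 35 against 27.4 to 32.1, 1 of 4 fell) overlapped between the groups. T and NK cell markers summed to 191 to 296 FPKM in KO libraries and 355 to 419 in WT (1 of 3 rose and 1 fell, Cd3g and Ncr1 at 0). Nearly all of this was Nkg7, the gene that fell (187 to 291 FPKM in KO and 352 to 417 FPKM in WT libraries), while Klrb1c rose. Endothelial and stromal markers summed to 22.7 to 25.1 FPKM in KO libraries and 38.2 to 43.4 FPKM in WT libraries (2 of 5 fell). Within the KO libraries, B and plasma cell markers summed to 3607 and 1550 FPKM in replicates 1 and 3, which lack Y-linked transcripts, and to 163 FPKM in replicate 2. The immunoglobulin gene Igkc was at 3182, 4.93 and 1173 FPKM in KO replicates 1 to 3 and at 2.48, 2.11 and 1.98 FPKM in WT replicates 1 to 3. In the neutrophil sums Mpo weighed most. Ngp, of late neutrophils, was at 37.2, 0.713 and 4.09 FPKM in KO replicates 1 to 3 and at 22.1 to 43.7 FPKM in WT libraries. Camp and Ltf were also below every WT library in KO replicates 2 and 3, while Retnlg was highest in KO replicate 3. The part of these shifts in the results below was not tested. In sorted populations such as these, fewer cycling cells and less of a transcript per cycling cell cannot be told apart.

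All 10 genes had a lower mean in the libraries labelled KO, and 7 of them fell past the threshold of an adjusted p under 0.05 in limma's moderated test on log2(FPKM + 1). The 7 were Cdk1, Ccna2, Aurka, Aurkb, Bub1, Ttk and Cdc20. Of all 11371 genes tested, 10.9% passed in either direction, 5.43% as lower and 5.48% as higher. The median log2 fold change of the 10 genes was -0.54, against -0.002 for all genes tested, and it ran from -0.67 for Aurkb to -0.14 for Plk1. In 8 of the 10 genes every KO library lay below every WT library, which held for 16.6% of all genes tested. None of the 10 rose. At an unadjusted p under 0.05, 8 were lower and 0 higher, against 1606 lower and 1522 higher of all 11371 genes. Voom on the recovered reads called 7 lower and 0 higher, against 7.06% of all genes called lower by voom. Summed over the 10 genes, the level was 328, 388 and 314 FPKM in KO replicates 1 to 3 and 442, 475 and 510 FPKM in WT replicates 1 to 3. The highest KO sum was thus below the lowest WT sum.

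**Figure D1:**
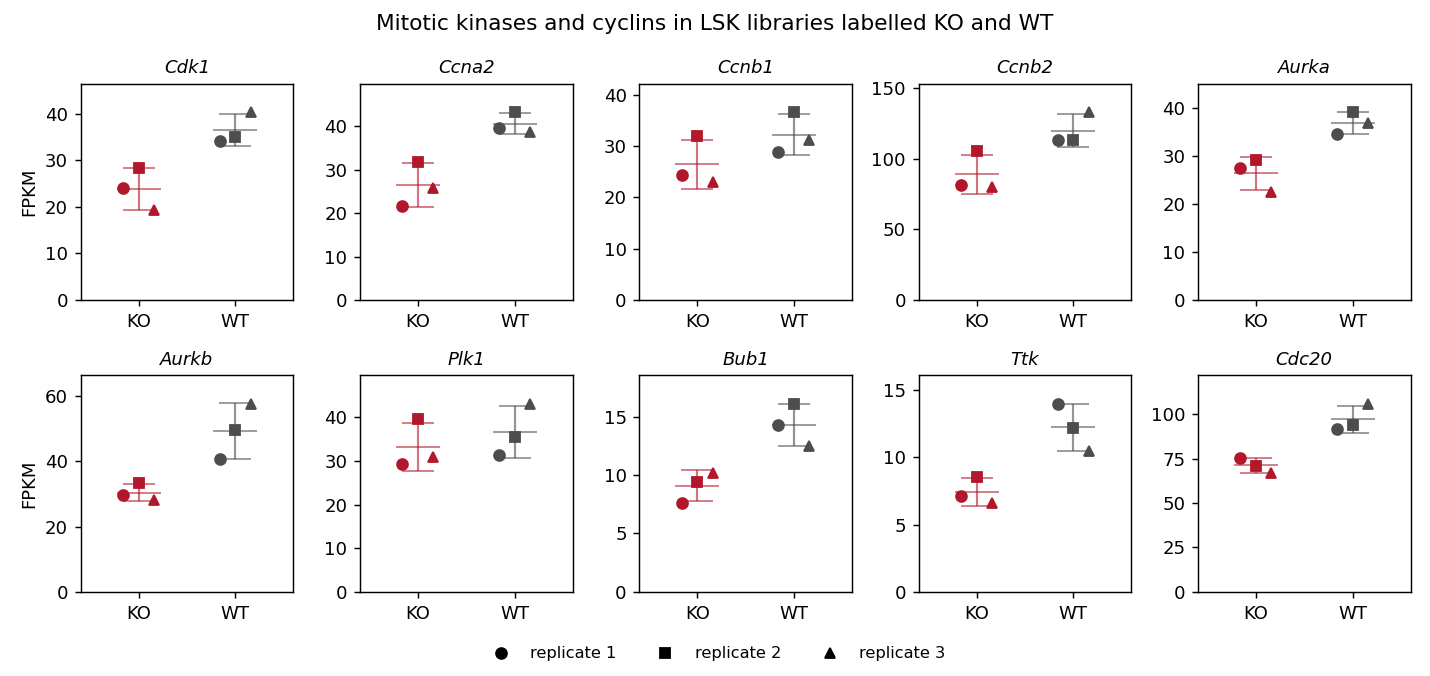
FPKM (y axis, from 0) of each of the 10 genes in the 3 libraries labelled KO (red, left) and the 3 labelled WT (grey, right). Symbols are replicates and bars the mean ± SD (n = 3). The groups are apart in 8 genes and overlap in Ccnb1 and Plk1.

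Cdk1 (chromosome 10, 69335146 to 69352938, minus strand, GRCm38), the kinase that starts mitosis, was at 24, 28.4 and 19.4 FPKM in KO replicates 1 to 3 and at 34.2, 34.9 and 40.4 FPKM in WT replicates 1 to 3. Every KO value was below every WT value. Cdk1 fell by 0.60 ± 0.14 (SE) on the log2 scale (limma adjusted p = 0.0298, 0.0177 to 0.289 over 16 alternatives), to 65.5% of the WT mean. Leaving out KO replicate 1 ended the call (adjusted p = 0.0716), as did leaving out WT replicate 1, 2 or 3 (0.0752, 0.0958 and 0.112).

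Ccna2 (chromosome 3, 36564865 to 36572150, minus strand), the cyclin that serves Cdk2 in S phase and Cdk1 in G2, was at 21.6, 31.7 and 25.8 FPKM in the KO libraries and at 39.6, 43.3 and 38.7 FPKM in the WT libraries. The groups did not overlap, and the KO libraries varied more than the WT libraries (SD of 5.12 and 2.42 FPKM, n = 3 each). Ccna2 fell by 0.62 ± 0.14 (limma adjusted p = 0.0247, 0.0130 to 0.252 over 16 alternatives). Its call ended when KO replicate 1 (adjusted p = 0.0594) or any 1 of WT replicates 1 to 3 was left out (0.0771, 0.111 and 0.0699). Of its annotated exon bases, 12.5% are shared with Exosc9 on the opposite strand (9 to 13.4 FPKM), and the library kit does not mark strand.

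The B cyclins, which bind Cdk1 for entry into mitosis, did not pass the threshold. Ccnb2 (chromosome 9, 70407692 to 70421547, minus strand) was the most abundant of the 10 genes per length, at 81.3, 105 and 80.1 FPKM in KO libraries and at 113, 113 and 133 FPKM in WT libraries. Its groups did not overlap, but KO replicate 2 came close to the lowest WT library. The log2 difference was -0.43 ± 0.13 (limma adjusted p = 0.0582, 0.0231 to 0.479 over 16 alternatives). Ccnb2 passed without KO replicate 2 (adjusted p = 0.0231), with the filter on means raised to 5 FPKM (0.0437) and with libraries scaled to the same FPKM total (0.0430).

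Ccnb1 (chromosome 13, 100778650 to 100786570, minus strand), the major B cyclin of mitotic entry, was at 24.4, 31.9 and 23.1 FPKM in KO libraries and at 28.8, 36.7 and 31.3 FPKM in WT libraries. KO replicate 2 stood inside the WT range, while KO replicates 1 and 3 stood below it. The log2 difference was -0.28 (95% interval -0.61 to 0.04, limma adjusted p = 0.243), and Ccnb1 passed in 0 of the 16 alternatives (adjusted p of 0.0928 to 0.983). Its interval holds both no change and the fall estimated for Cdk1.

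Aurora A, the spindle pole kinase encoded by Aurka (chromosome 2, 172356190 to 172370535, minus strand), was at 27.4, 29.2 and 22.5 FPKM in KO libraries and at 34.6, 39.2 and 36.9 FPKM in WT libraries. All KO values lay below the WT values. Aurka fell by 0.48 ± 0.12 (limma adjusted p = 0.0365, 0.0235 to 0.281 over 16 alternatives). Aurka did not pass with KO replicate 1 left out (adjusted p = 0.0667), nor with WT replicate 1, 2 or 3 left out (0.0810, 0.150 and 0.110).

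Aurora B, the kinase of the chromosomal passenger complex, is encoded by Aurkb (chromosome 11, 69045647 to 69051664, plus strand). Aurkb had the largest fall of the 10 in log2(FPKM + 1). By mean FPKM, Ttk fell further, to 60.7% of its WT mean. Aurkb was at 29.6, 33.3 and 28.3 FPKM in KO libraries and at 40.8, 49.5 and 57.7 FPKM in WT libraries. The KO libraries were close to each other and the WT libraries were spread out (SD of 2.57 and 8.46 FPKM, n = 3 each). Aurkb fell by 0.67 ± 0.14 (limma adjusted p = 0.0165, 0.00951 to 0.164 over 16 alternatives), to 61.7% of the WT mean. Leaving out WT replicate 2 or WT replicate 3 ended its call (adjusted p = 0.0753 and 0.0650), and Aurkb passed in 11 of the 16 alternatives, more than any other of the 10.

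Plk1 (chromosome 7, 122159439 to 122169873, plus strand), the polo-like kinase that acts from mitotic entry to cytokinesis, differed least. It was at 29.4, 39.5 and 30.8 FPKM in KO libraries and at 31.4, 35.5 and 43.1 FPKM in WT libraries. KO replicate 2 was higher than WT replicates 1 and 2, so the groups overlapped. The log2 difference was -0.14 (95% interval -0.48 to 0.20, limma adjusted p = 0.594), and it passed in 0 of the 16 alternatives (0.297 to 0.955). Of its exon bases, 7.09% are shared with Gm44985 on the opposite strand. With KO replicate 2 as the sole KO library the difference turned to 0.12 (adjusted p = 0.717).

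By mean level Plk1 had rank 3 among the 10 genes in the KO libraries and rank 6 in the WT libraries. The ratio of Plk1 to Aurkb, taken per length within a library, was 0.991, 1.19 and 1.09 in KO libraries and 0.770, 0.719 and 0.747 in WT libraries, with no overlap. The ratio of Ccnb1 to Ccna2 was 1.13, 1.01 and 0.895 in KO libraries and 0.728, 0.847 and 0.809 in WT libraries, again with no overlap. The ratio of Ccnb1 to Ccnb2 overlapped, at 0.3, 0.304 and 0.288 in KO libraries and 0.256, 0.323 and 0.236 in WT libraries. The ratio of Plk1 to Bub1 overlapped too, at 3.86, 4.2 and 3.02 in KO libraries and 2.2, 2.21 and 3.44 in WT libraries. So did the ratios of Aurkb to Aurka and of Cdc20 to Bub1. These ratios were chosen after the values were seen and are descriptions, and an exact two-sided permutation test of 3 against 3 libraries cannot give a p below 0.1.

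Among the checkpoint kinases, Bub1 (chromosome 2, 127801122 to 127831865, minus strand), which recruits checkpoint proteins to the kinetochore, was at 7.61, 9.40 and 10.2 FPKM in KO libraries and at 14.3, 16.1 and 12.5 FPKM in WT libraries. The groups did not overlap, with KO replicate 3 the nearest to WT. Bub1 fell by 0.61 ± 0.15 (limma adjusted p = 0.0331, 0.0210 to 0.199 over 16 alternatives). The call ended when KO replicate 1 or 2 was left out (adjusted p = 0.0911 and 0.0644), or WT replicate 1, 2 or 3 (0.102, 0.145 and 0.0608).

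Ttk (chromosome 9, 83834689 to 83872389, plus strand), the kinase at the head of the spindle checkpoint, was the least abundant of the 10 per length. Its values were 7.11, 8.57 and 6.60 FPKM in KO libraries and 14.0, 12.2 and 10.5 FPKM in WT libraries, with every KO value below every WT value. Ttk fell by 0.65 ± 0.15 (limma adjusted p = 0.0273, 0.0204 to 0.245 over 16 alternatives), to 60.7% of the WT mean. Ttk did not pass with KO replicate 1 left out (adjusted p = 0.0744), nor with WT replicate 1, 2 or 3 left out (0.107, 0.109 and 0.0506).

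Cdc20 (chromosome 4, 118432901 to 118437352, minus strand), the activator of the anaphase-promoting complex, was at 75.6, 71.1 and 67.1 FPKM in KO libraries and at 91.8, 93.8 and 106 FPKM in WT libraries. The groups were well apart, and Cdc20 was 1 of 2 genes in which KO replicate 2 was not the highest KO library, Bub1 being the other. Cdc20 fell by 0.44 ± 0.10 (limma adjusted p = 0.0225, 0.0139 to 0.126 over 16 alternatives). Cdc20 no longer passed with KO replicate 2 left out (adjusted p = 0.0502), or with WT replicate 1, 2 or 3 left out (0.0561, 0.0805 and 0.0986). Of its exon bases, 2.84% are shared with Elovl1 on the opposite strand (42.6 to 62.5 FPKM).

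**Figure D2:**
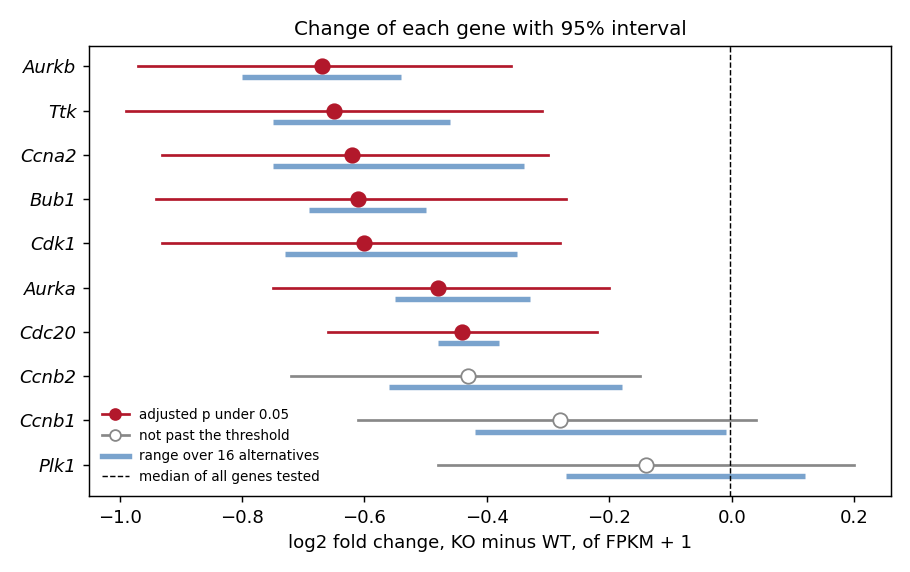
Log2 fold change of each gene (KO minus WT, of FPKM + 1) with its 95% interval. Filled red points passed an adjusted p under 0.05, open grey points did not. Blue bars give the range over 16 alternatives and the dashed line the median of all genes tested (-0.002). Points run from -0.67 (Aurkb) to -0.14 (Plk1).

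The order of levels was alike in both groups at its ends. Ccnb2 (88.8 ± 14.0 FPKM in KO and 120 ± 11.4 FPKM in WT libraries, SD, n = 3 each) and Cdc20 (71.3 ± 4.26 and 97.2 ± 7.58 FPKM) stood apart from each other and from the rest. Together they made up 45.4 to 47.8% of the summed level of the 10 genes in KO libraries and 43.7 to 46.8% in WT libraries. Bub1 (9.07 ± 1.33 and 14.3 ± 1.78 FPKM) and Ttk (7.43 ± 1.02 and 12.2 ± 1.71 FPKM) were at the low end, apart from the rest but not from each other. The 6 genes between them followed in the order Plk1, Aurkb, then Ccnb1, Aurka and Ccna2 (26.4 FPKM each) and Cdk1 in KO libraries, and Aurkb, Ccna2, Aurka, Plk1, Cdk1 and Ccnb1 in WT libraries. Within each group the ranges of all neighbours in this middle order overlapped.

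The KO libraries did not fall evenly. KO replicate 2 was the highest KO library in 8 of the 10 genes, and KO replicate 3 was the lowest in 7. Relative to the WT mean, KO replicate 3 stood at -0.87 for Cdk1 on the log2 scale, KO replicate 1 at -0.58 and KO replicate 2 at -0.35. KO replicates 1 and 3 were below every WT library in 10 of 10 genes, and KO replicate 2 in 8 of 10. The shares of all genes tested were not taken for these counts of single libraries. They therefore cannot be ascribed to these genes rather than to the libraries. KO replicate 2 is also the KO library with Y-linked transcripts, which all WT libraries have, and with the lowest sum of B and plasma cell markers of the KO libraries (163 FPKM). The part of these markers in the difference between KO libraries was not tested. Set alone against the WT libraries, its log2 difference was -0.55 for Bub1, -0.54 for Aurkb, -0.46 for Ttk and -0.44 for Cdc20. It was -0.35 to -0.33 for Cdk1, Ccna2 and Aurka, -0.18 for Ccnb2 and -0.01 for Ccnb1. With that lone library, assumed to vary like the others, limma called 0 of the 10 genes (adjusted p of 0.0908 to 0.979) and 2.19% of all genes as lower, and 6 of the 10 were lower at an unadjusted p under 0.05. The same fold changes came with all 6 libraries and a term for lacking Y-linked transcripts, with 0 called and 1.4% of all genes called lower. At an unadjusted p under 0.05, 3 of the 10 were lower in that fit, against 1228 of all 11371 genes. No WT library lacked Y-linked transcripts, so for KO replicates 1 and 3 sex and label cannot be told apart.

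**Figure D3:**
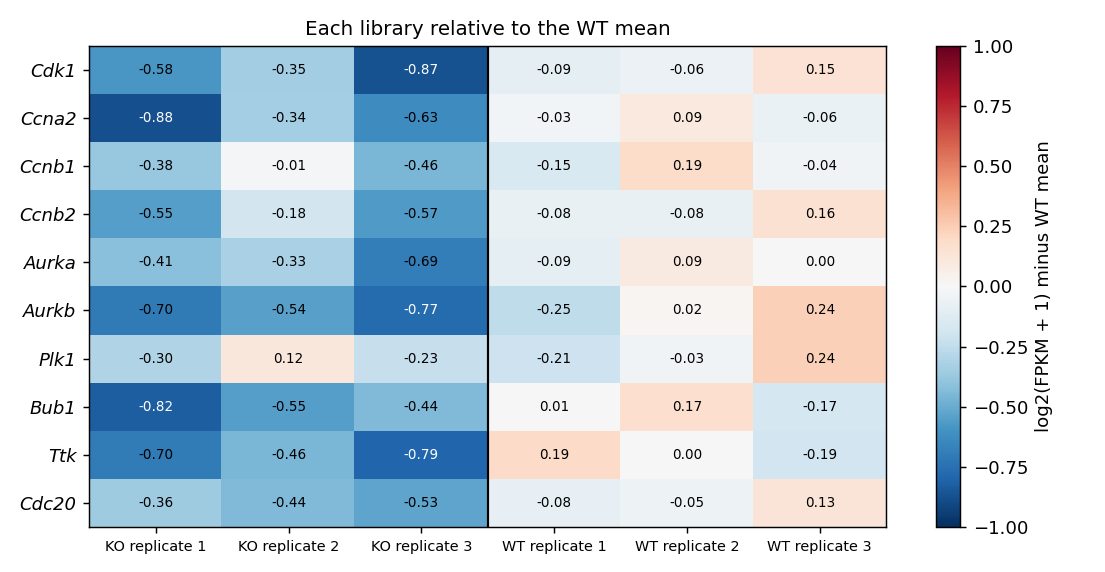
Log2(FPKM + 1) of each gene (rows) in each library (columns, KO left and WT right) minus the mean of the 3 WT libraries. Blue is below and red above the WT mean. KO replicate 2 is paler than KO replicates 1 and 3 in most rows and is at 0.12 for Plk1.

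Leaving out single libraries changed the calls, and those of all genes too. Each such fit rests on fewer libraries, so a lost call need not mean a smaller fall. Of the 10 genes, 2 were called without KO replicate 1 (Aurkb and Cdc20), when 3.52% of all genes were called lower. Without KO replicate 2 the count was 6, against 3.81% of all genes, with Ccnb2 gained and Bub1 and Cdc20 lost. Without KO replicate 3 it was 7, against 7.33%. Without WT replicate 1 it was 1 (Aurkb), against 2.01%. It was 0 without WT replicate 2, against 1.39%, and 0 without WT replicate 3, against 1.98%. In these last 2 fits the adjusted p of the 7 genes was 0.0753 to 0.150 and 0.0506 to 0.112. In both, 8 of the 10 were lower at an unadjusted p under 0.05, against 1179 and 1277 of all 11371 genes. The median of the 10 lay between -0.60 and -0.43 with any single library left out.

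Settings that keep all 6 libraries moved the count as well. It was 7 with a pseudocount of 0.1 (5.38% of all genes called lower). Median-of-ratios scaling also gave 7 (5.43%). The deposited values already carry divisors of that kind, so this setting nearly repeats the main fit and could not move the count. The count was 8, with Ccnb2 added, when the filter was raised to 5 FPKM (7.39%) and for libraries scaled to the same FPKM total (5.03%). Without the mean-variance trend it was 2, Aurkb and Ttk (4.03%), and with no filter on low values it was 1, Cdc20 (1.31%).

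**Figure D4:**
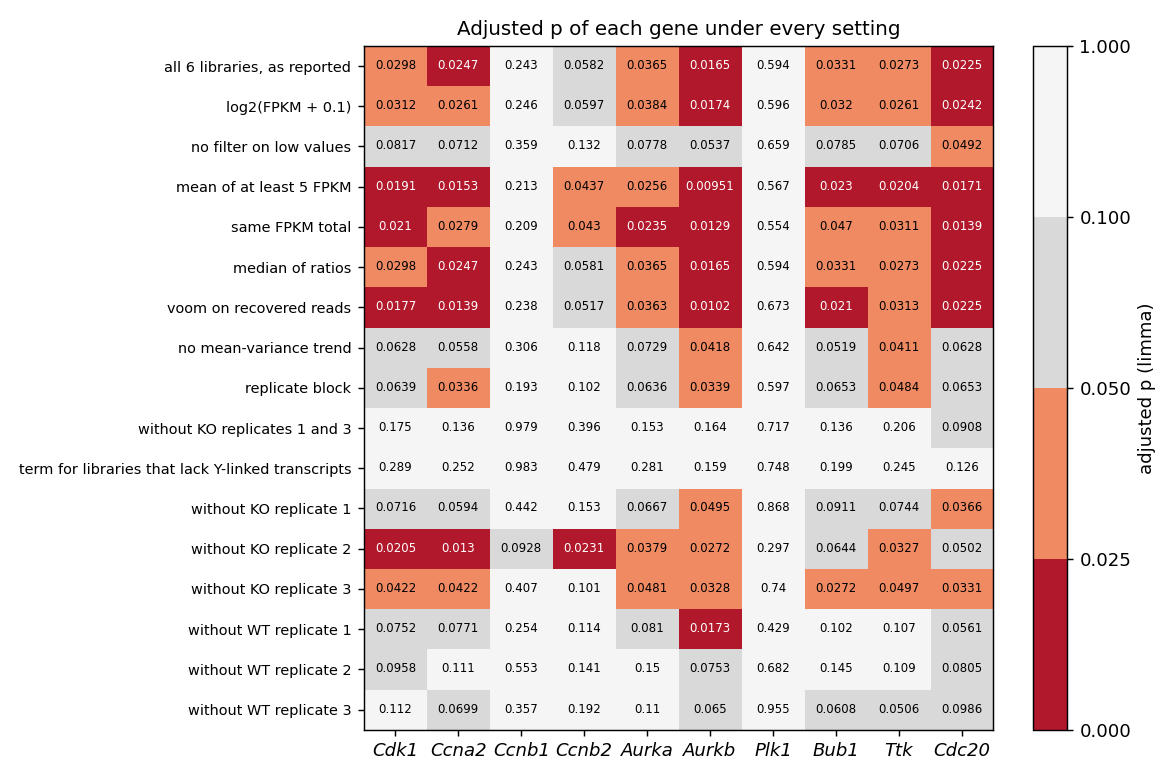
Adjusted p (limma) of each gene (columns) with all 6 libraries and under 16 alternatives (rows). Red and orange cells are under 0.05, grey and white cells are not. The 7 called genes lose the threshold without WT replicate 2 and without WT replicate 3, and Ccnb1 and Plk1 do not reach it in any row.

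Related genes of mitosis were read from 8 lists, 120 genes in all, of which 116 were tested. Of these, 33 fell and 4 rose, with a median log2 fold change of -0.34, where 5.43% of all genes tested fell and 5.48% rose. The 37 called became 9 without WT replicate 2, 9 without WT replicate 3, 15 without WT replicate 1 and 20 without KO replicate 1. They became 7 with KO replicate 2 as the sole KO library and 6 with the term for lacking Y-linked transcripts. Among other mitotic kinases and cyclins, 6 of 16 fell and 1 rose (median -0.44). Pbk, a kinase of dividing cells, fell by 0.83, Nek2, a centrosome kinase, by 0.93, and Plk4, which starts centriole duplication, by 0.61. Nek6 rose by 0.63. Without KO replicates 1 and 3 the log2 difference of Pbk was -0.52 and its call was lost (limma adjusted p = 0.0721), as it was with the term for lacking Y-linked transcripts (0.0871). Nek2, Nek6 and Plk4 no longer passed when any 1 WT library was left out (adjusted p of 0.0549 to 0.110), and Plk4 also without KO replicate 1 (0.0722). Of 13 genes that switch Cdk1 on or off, 2 fell and 1 rose (median -0.24). Pkmyt1, an inhibitory kinase of Cdk1, fell by 0.68 and Cdc25b, an activating phosphatase, by 0.74. Cdkn1a, which encodes the CDK inhibitor p21, was at 714, 479 and 553 FPKM in KO libraries and at 310, 394 and 297 FPKM in WT libraries and rose by 0.79 ± 0.16 (limma adjusted p = 0.0159). Pkmyt1 and Cdc25b missed the threshold without each WT replicate (0.0691 to 0.158), Cdc25b also without KO replicates 2 and 3 (0.103 and 0.0720), and Cdkn1a without WT replicates 1 and 3 (0.0672 and 0.0699).

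Of 12 partners of the Aurora kinases and Plk1, 7 fell and 0 rose (median -0.55). Incenp, the scaffold of the Aurora B complex, was at 20.5, 21.6 and 24.4 FPKM in KO libraries and at 34.5, 41.3 and 36.3 FPKM in WT libraries, and fell by 0.73. Tpx2, which activates Aurora A on spindle microtubules, fell by 0.78, the cytokinesis factor Ect2 by 0.88 and the microtubule protein gene Tacc3 by 0.46. Ect2 and Incenp passed whichever single library was left out, but not with the term for lacking Y-linked transcripts (adjusted p = 0.0758 and 0.0510), nor did Ect2 without KO replicates 1 and 3 (0.0627). Tpx2 lost it without WT replicates 2 and 3 (adjusted p = 0.0678 and 0.0570), and Tacc3 without KO replicate 1 and without each WT replicate (0.0561 to 0.0891). Of 12 spindle checkpoint partners of Bub1 and Ttk, 3 fell and 1 rose (median -0.52). Mad1l1, Mad2l1 and Kntc1, parts of the checkpoint machinery, fell by 0.60, 0.52 and 0.94. Mad2l1bp, which encodes a factor that helps to take the checkpoint complex apart (p31comet), rose by 1.14 ± 0.15 (limma adjusted p = 0.00304) and passed whichever single library was left out, but not without KO replicates 1 and 3 (0.0696). Mad1l1 no longer passed without WT replicate 2 or 3 (0.111 and 0.0959), Mad2l1 without each library but KO replicate 2 (0.0646 to 0.129), and Kntc1 without each library but KO replicate 3 (0.125 to 0.144).

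Downstream of Cdc20, 2 of 19 genes of the anaphase-promoting complex, its regulators and separase fell and 0 rose (median -0.05). The ubiquitin-conjugating enzyme gene Ube2s, which extends chains for this complex, was at 119, 136 and 110 FPKM in KO libraries and at 208, 239 and 223 FPKM in WT libraries and fell by 0.88 ± 0.11 (limma adjusted p = 0.00182). Espl1, which encodes separase, fell by 0.80 and missed the threshold without each library but KO replicate 3 (adjusted p of 0.0547 to 0.127). Of 10 mitotic exit phosphatase genes 1 fell and 0 rose (median 0.05). This was Ppp2r5a, a regulatory subunit of protein phosphatase 2A, which fell by 0.37 and missed the threshold without each library but KO replicate 3 (0.0951 to 0.138).

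Of 21 genes of the G2 and M transcription programme, 5 fell and 1 rose (median -0.30). Foxm1, whose product acts on the homology region elements, was at 3.71, 3.13 and 3.32 FPKM in KO libraries and at 7.28, 7.38 and 8.21 FPKM in WT libraries. It fell by 0.98 ± 0.15 (limma adjusted p = 0.00481) and passed in all 16 alternatives. Mybl2, which encodes B-Myb, fell by 0.78, and the E2F factor genes E2f8 and E2f1 by 1.05 and 0.58. Lin52, a subunit of the MuvB core named after its value was seen, rose by 0.43 and passed in 4 of the 16 alternatives. Mybl2 no longer passed without WT replicate 2 or 3 (adjusted p = 0.0802 and 0.0539), E2f8 without KO replicate 1 and WT replicates 2 and 3 (0.0524 to 0.0764) and E2f1 without KO replicate 1 and each WT replicate (0.0585 to 0.0823). Of 13 proliferation markers 7 fell and 0 rose (median -0.44). Top2a and Uhrf1, of DNA untangling and methylation upkeep, fell by 1.04 and 1.13 and passed in all 16 alternatives. Mcm7 and Mcm5, of the replicative helicase, fell by 0.54 and 0.44, Mcm7 missing the threshold without WT replicate 2 (0.0509) and Mcm5 without KO replicate 1 and each WT replicate (0.0658 to 0.107). Mki67, the Ki-67 antigen, was at 2.90, 1.95 and 1.46 FPKM in KO libraries and at 3.72, 6.01 and 7.5 FPKM in WT libraries and fell by 1.10, a call lost without KO replicates 2 and 3 (0.0717 and 0.0561) and WT replicates 2 and 3 (0.111 and 0.103). The sum of the 10 mitotic genes was 113, 199 and 214 times the Mki67 level in KO libraries and 119, 79.0 and 68.0 times in WT libraries, with KO replicate 1 inside the WT range.

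**Figure D5:**
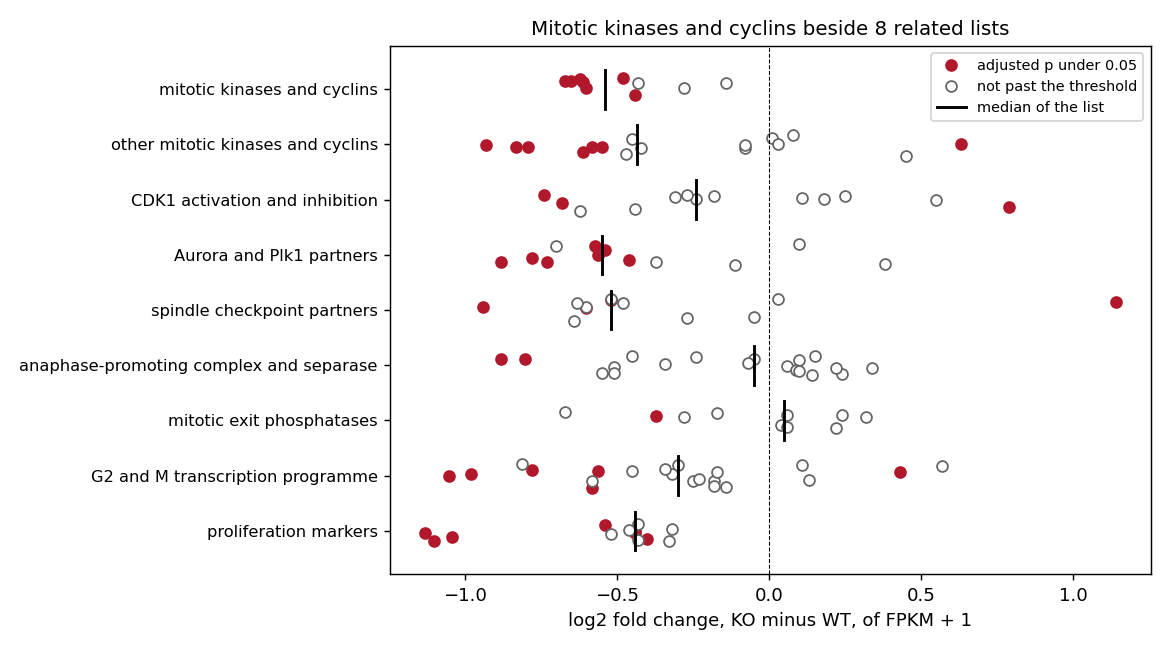
Log2 fold change (KO minus WT, of FPKM + 1) of each tested gene in the 10 mitotic kinases and cyclins and in 8 related lists. Filled red points passed an adjusted p under 0.05, open points did not, and black bars are list medians, from -0.55 (Aurora and Plk1 partners) to 0.05 (mitotic exit phosphatases). Vertical scatter within a list carries no meaning.

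The pattern over the 6 libraries was summarised as the mean of the 10 genes after each was scaled to mean 0 and SD 1. Of 10074 other genes, those most like it were Hmgb2 (Pearson's r = 0.998), a chromatin protein of dividing cells, Pbk (0.997), Mcm5 (0.997), the tubulin gene Tuba1b (0.994) and Mad2l1 (0.993). The 2 groups do not overlap in 8 of the 10 genes, so r largely describes that difference, and 120 of the genes reached 0.95. Hmgb2 was at 207, 270 and 201 FPKM in KO libraries and at 322, 373 and 396 FPKM in WT libraries, and it no longer passed without WT replicates 2 and 3 (limma adjusted p = 0.0678 and 0.0601). Among the 10 genes themselves, Cdk1 and Ccnb2 followed the common pattern most closely (0.966 each) and Plk1 least (0.666). Each of the 10 is part of the mean it is compared with, so these r values are not comparable with those of other genes.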

How the data were processed

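The table deposited by the authors gives FPKM for 38926 gene symbols and 6 libraries. The labels' protocols name SMART-Seq v4 for cDNA and Nextera XT for libraries, a pairing that does not mark strand. The submitters' processing notes list, without roles or order, DESeq2 1.18.1, HTSeq 0.6.1, TopHat2 2.1.1, bcl2fastq 2.19.1.403 and the mm10 (GRCm38) build. The sources used here name no annotation. Within each of the 17183 genes above 0 in 2 or more libraries, FPKM values stood to each other as whole numbers (relative tolerance 1e-09) once each library had its own divisor, and those divisors scaled with size factors of the median-of-ratios kind. Whole reads were scaled to GENCODE M21 exon lengths where these matched (50.6% of symbols above 0) and are otherwise the smallest that give a whole length, so some are lower bounds. They served only for depth and for voom.

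The comparison of KO with WT was fitted to log2(FPKM + 1) in limma 3.58.1 under R 4.3.3 (lmFit, then eBayes, trend on). It covered the 11371 genes whose mean across libraries reached 1 FPKM. Benjamini-Hochberg adjustment ran over every one of these two-sided tests, with a threshold of 0.05. The pseudocount makes changes of low genes look smaller. The fit was tested on simulated data. No set test was run. The 10 genes, the lists, the rule for named genes (of each list the called members, up to 4 by smallest p) and the alternatives were chosen with earlier results of these data known. Positions come from GENCODE M21 and promoters from RefSeq (GRCm38.p6). Plots used Python 3.11.15 and matplotlib 3.10.9. Same-numbered KO and WT libraries did not deviate together (r of deviations from group means of -0.031, 0.045 and -0.116 over tested genes), so the numbers were not used as pairs.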

Additional observations from a re-analysis of the deposited data

How the results depend on the processing

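Of 160 values of the 10 genes under 16 alternatives, 158 were below 0. The exceptions were Plk1, at 0.12 without KO replicates 1 and 3 and at 0.12 with the term for libraries that lack Y-linked transcripts. Those 2 settings give the same fold changes by construction. The filters, the lack of a mean-variance trend and the replicate block cannot move the fold change from the main fit. Many of the 160 values are therefore repeats, and their tally does not measure how stable the sign is. Of the 10 genes, 7 were called with all 6 libraries, and the count was 0 to 7 when 1 library was left out, 0 without KO replicates 1 and 3, 0 with the Y-linked term, 1 with no filter on low values and 2 with no mean-variance trend. For the related genes the count was 37, and 9 to 40 with 1 library left out, 7 without KO replicates 1 and 3, 6 with the Y-linked term and 14 with no filter. For all genes it was 1240, and 370 to 1598 with 1 library left out, 514 without KO replicates 1 and 3, 373 with the Y-linked term and 588 with no filter. With the replicate number as a block, which the pairing check gave no ground for, the counts were 3 of the 10, 18 related genes and 805 genes. Another pseudocount (0.1), a mean of at least 5 FPKM, scaling to the same FPKM total and voom on recovered reads left 7 or 8 of the 10 called. Median-of-ratios scaling left 7, but it nearly repeats the scaling of the deposited values. With no filter, 19373 genes enter the adjustment in place of 11371. The cause of the other changes was not tested. Ly6a lay between -0.03 and 0.21 with 1 library left out, the negative value being that without KO replicate 1. The 10 genes had 104 or more reads each per library, and there were 3 libraries per group.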
